A study of Mus with 6 samples.

Results

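Genes of the transforming growth factor beta (TGF-beta) and bone morphogenetic protein (BMP) pathways were compared between knee cartilage chondrocytes of Sirt6 cKO mice and of wild-type (WT) mice. The 33 genes described here were chosen by name, out of 11659 genes in the deposited count table. The names covered the ligands, their latent binding proteins, antagonists, receptors, Smad proteins, intracellular inhibitors, Id proteins and a few transcription factors of the pathway. The rule also took in Bmp2k, a kinase named for its induction by BMP and matched by name only. Genes were used only in the 2 stretches of the table in which the counts were found to stand beside the right gene, as given with the processing. Of 92 protein-coding genes with such a name, 38 had no named row, among them Bmp4, Id2, Id3, Nog, Grem1 and Tgfb2, and 21 lay outside those stretches. These genes were not analysed here.

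Bulk RNA sequencing was carried out on 3 WT and 3 Sirt6 cKO samples of C57BL/6J mice aged 12 weeks. According to the study's methods, the mice were male and chondrocytes were digested from cartilage, cultured and used at first passage in all experiments. The methods for the sequencing do not repeat this. Sirt6 is a NAD-dependent deacylase of chromatin, and Sirt6 cKO stands for Col2a1-CreERT2 mice with floxed Sirt6, in which a tamoxifen-inducible Cre is driven by the promoter of a cartilage collagen. The sources used here do not say whether these particular mice received tamoxifen, nor whether the WT mice carried the floxed allele or Cre. The study's data statement can be read as a mouse for each sample, but the labels tie no sample to an animal or litter, so the p-values measure the spread between these samples.

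The totals were 25726958 to 30156935 counts per sample, and the 33 genes together took 0.206% to 0.244% of them. Sirt6 itself had 10273, 9963 and 10943 counts in the WT samples and 1056, 862 and 660 in the Sirt6 cKO samples, and the groups did not overlap. It fell 12.9-fold (edgeR quasi-likelihood test, adjusted p = 8e-06). WT replicate 1 stood apart from the other WT samples, with a correlation of log counts of 0.969 and 0.971 to them, against 0.993 between the other two. Values without it are given beside the members whose call it changes, and for some other members with its own description further on. For the other genes around the pathway, they are given as counts and for some named genes.

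TGF-beta is secreted in a latent form, held in the matrix by latent TGF-beta binding proteins, and signals after release through type II and type I receptor kinases to Smad2 and Smad3. BMP and many GDF ligands use related receptors and signal to Smad1, Smad5 and Smad9. In both branches the phosphorylated Smads join Smad4 and enter the nucleus, and Smad6, Smad7, Smurf ligases, Ski proteins and secreted antagonists restrain the signal. In cartilage, TGF-beta signalling is known for keeping articular chondrocytes from hypertrophy, and BMP signalling for driving chondrocyte differentiation.

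Of the 33 genes, 4 rose over 2-fold in Sirt6 cKO (Gdf7, Chrd, Pmepa1 and Inha) and 2 fell over 2-fold (Ltbp2 and Id1). A gene was counted at an adjusted p under 0.05 by the edgeR quasi-likelihood test, adjusted over all 11246 genes tested by the Benjamini-Hochberg method, and a change of over 2-fold (a ratio over 2 or under 0.5). The 6 genes are 18.2% of the 33, beside 15.9% of all genes tested by the same rule (8.72% higher and 7.15% lower). With no fold threshold, 9 rose and 6 fell, which is 45.5% of the 33 beside 46.8% of all genes tested (22.5% higher and 24.3% lower). The remaining 18 did not pass. Both shares lay near those of the whole table. The median log2 fold change of the 33 genes was 0.206 and that of all genes tested 0.002, while the median absolute log2 fold change was 0.383 for the 33 genes and 0.497 for all genes. Normalised counts of the genotypes did not overlap for 22 of the 33 genes, or 66.7%, beside 60.9% of all genes tested. The genes changed in both directions and within most of the roles described next. In bulk RNA, fewer cells of a type and less RNA per cell cannot be told apart.

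**Figure D1:**
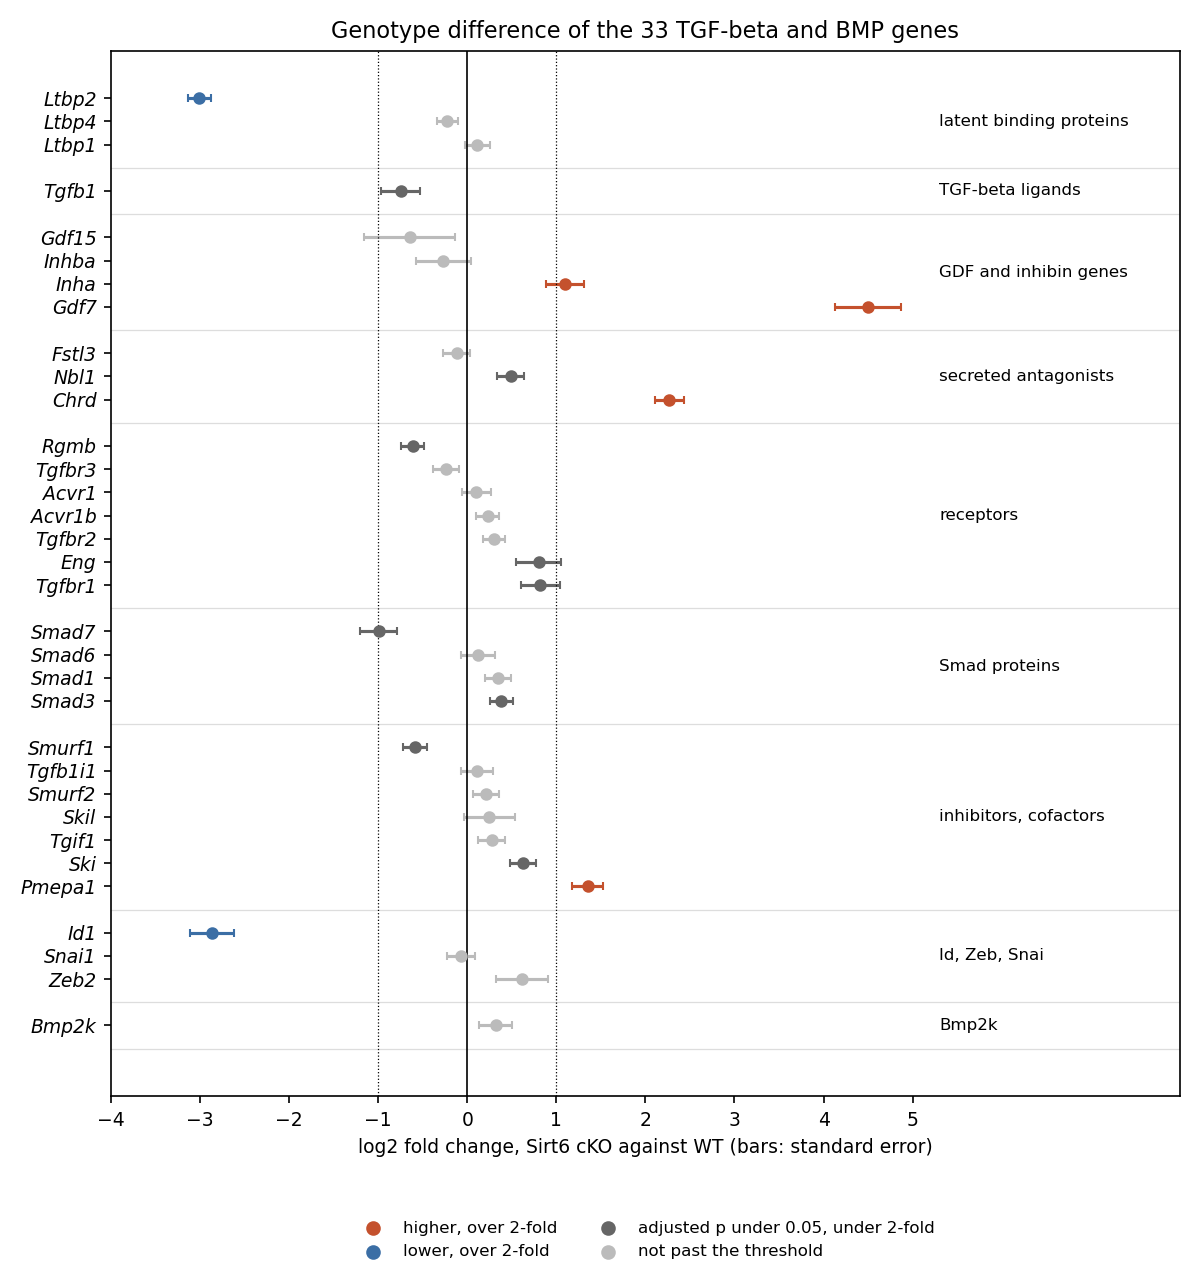
Log2 fold change of Sirt6 cKO against WT for the 33 genes, ordered by role; points are estimates of the edgeR fit, bars are standard errors, and dotted lines mark 2-fold. Ltbp2 at -3.01 and Id1 at -2.87 lie farthest to the left, Gdf7 at 4.50 and Chrd at 2.27 farthest to the right, and most of the other genes lie between the dotted lines.

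Among the latent TGF-beta binding proteins, Ltbp2 alone of the 3 measured fell. Its estimated fall was the largest of the 33 genes in the fit with all samples, while Id1 came first without Sirt6 cKO replicate 3 or WT replicate 2. Ltbp2 encodes an extracellular matrix protein that associates with elastic microfibrils and, unlike its relatives, is not known to bind latent TGF-beta. The gene (ENSMUSG00000002020) lies at chr12:84783212-84876532 on the minus strand in the deposited positions, which fit the GRCm38 mouse build. It had 4337, 5772 and 5739 counts in WT, against 697, 681 and 704 in Sirt6 cKO. All WT samples were high, and the Sirt6 cKO samples lay close together far below them. The normalised count, scaled to the mean library total, went from 5417 ± 224 to 673 ± 19.4 (SD, n = 3 each), an 8.04-fold fall with a log2 fold change of -3.01 and a standard error of 0.127 (edgeR, adjusted p = 2.73e-06). On the other strand, D030025P21Rik shares 764 of the 8184 exon bases of Ltbp2, and its row lies outside the stretches used.

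Ltbp1 and Ltbp4, which tether latent TGF-beta to the matrix, did not pass the test. Ltbp1 had 1538, 2216 and 2406 counts in the WT samples and 2152, 2310 and 2537 in the Sirt6 cKO samples, and the groups overlapped (log2 fold change 0.11, edgeR adjusted p = 0.533). Ltbp4 had 2808, 3070 and 3180 counts in WT, against 2595, 2804 and 2871 in Sirt6 cKO (log2 fold change -0.22, edgeR adjusted p = 0.163). Its normalised counts did not overlap, although its raw counts did. Per kilobase of exon, Ltbp2 held 47.7%, 50.7% and 49.3% of the counts of these 3 genes in WT and 12.3%, 11.3% and 11.1% in Sirt6 cKO. Ltbp4 then made up the largest share, 57.5% to 58.8%, and Ltbp1 29.7% to 31.3%. Of these 3 genes, Ltbp2 had the largest share in WT and the smallest in Sirt6 cKO. Ltbp3 lies outside the stretches used and was not analysed here.

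Tgfb1, the only TGF-beta ligand measured here, fell 1.68-fold. Its counts were 1729, 1669 and 1583 in WT and 999, 800 and 1381 in Sirt6 cKO. Every WT sample lay above every Sirt6 cKO sample, with Sirt6 cKO replicate 3 nearest to WT (log2 fold change -0.75, standard error 0.218, edgeR adjusted p = 0.0213). The call was lost without Sirt6 cKO replicate 1 (adjusted p = 0.0713) or replicate 2 (adjusted p = 0.0749).

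The GDF and inhibin genes held the gene with the largest rise. Gdf7, also called BMP12, is a ligand studied for its effects on tendon and ligament cells. Gdf7 (ENSMUSG00000037660, chr12:8297934-8301954, minus strand) had 2, 8 and 7 counts in the WT samples and 136, 135 and 141 in the Sirt6 cKO samples. The WT samples were near the bottom of the count range and the Sirt6 cKO samples lay within a few counts of each other. The normalised count went from 5.61 ± 2.85 to 133 ± 3.92 (SD, n = 3 each), a 22.6-fold rise (log2 fold change 4.50, standard error 0.374, edgeR adjusted p = 4.42e-05). Gdf7 was the only one of the 33 genes with fewer than 10 counts in any sample. It passed the filter on low counts only through Sirt6 cKO, and the size of its fold rests on these few WT counts.

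Inha, the alpha subunit that turns an activin into an inhibin, rose 2.14-fold. It had 118, 114 and 128 counts in WT, against 266, 336 and 221 in Sirt6 cKO, so that all Sirt6 cKO samples were higher and more spread (log2 fold change 1.10, standard error 0.216, edgeR adjusted p = 0.00373). It was the gene just inside the fold threshold, and without Sirt6 cKO replicate 2 its log2 fold change was 0.94, under 2-fold. Inhba, the beta A subunit that forms activin A, was not past the test (213, 519 and 541 counts in WT, 299, 290 and 503 in Sirt6 cKO, log2 fold change -0.27). Gdf15, a stress-induced cytokine, had 38, 37 and 21 counts in the WT samples and 21, 10 and 35 in the Sirt6 cKO samples, which overlapped (log2 fold change -0.65, standard error 0.510, edgeR adjusted p = 0.324).

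Of the secreted antagonists, Chrd and Nbl1 rose and Fstl3 did not pass. Chrd encodes chordin, which binds BMP ligands and keeps them from their receptors. The gene (ENSMUSG00000006958, chr16:20733127-20742384, plus strand) had 119, 122 and 155 counts in WT, against 676, 719 and 632 in Sirt6 cKO. Its lowest Sirt6 cKO sample lay far above its highest WT sample. The normalised count went from 136 ± 15.1 to 655 ± 38.0 (SD, n = 3 each), a 4.82-fold rise (log2 fold change 2.27, standard error 0.164, edgeR adjusted p = 2.24e-05). Thpo on the other strand shares 154 of the 5838 exon bases of Chrd. The row of Thpo lies outside the stretches used, so its counts are not given here.

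Nbl1, an antagonist of the DAN family that binds BMP ligands, had 466, 526 and 529 counts in the WT samples and 828, 682 and 755 in the Sirt6 cKO samples (log2 fold change 0.49, standard error 0.147, edgeR adjusted p = 0.0247). It rose 1.40-fold, a call lost without WT replicate 2 (adjusted p = 0.0701), WT replicate 3 (0.0819) or Sirt6 cKO replicate 1 (0.120). Fstl3, which binds activins, had 254 to 286 counts in WT, against 266 to 274 in Sirt6 cKO (log2 fold change -0.12, edgeR adjusted p = 0.549).

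**Figure D2:**
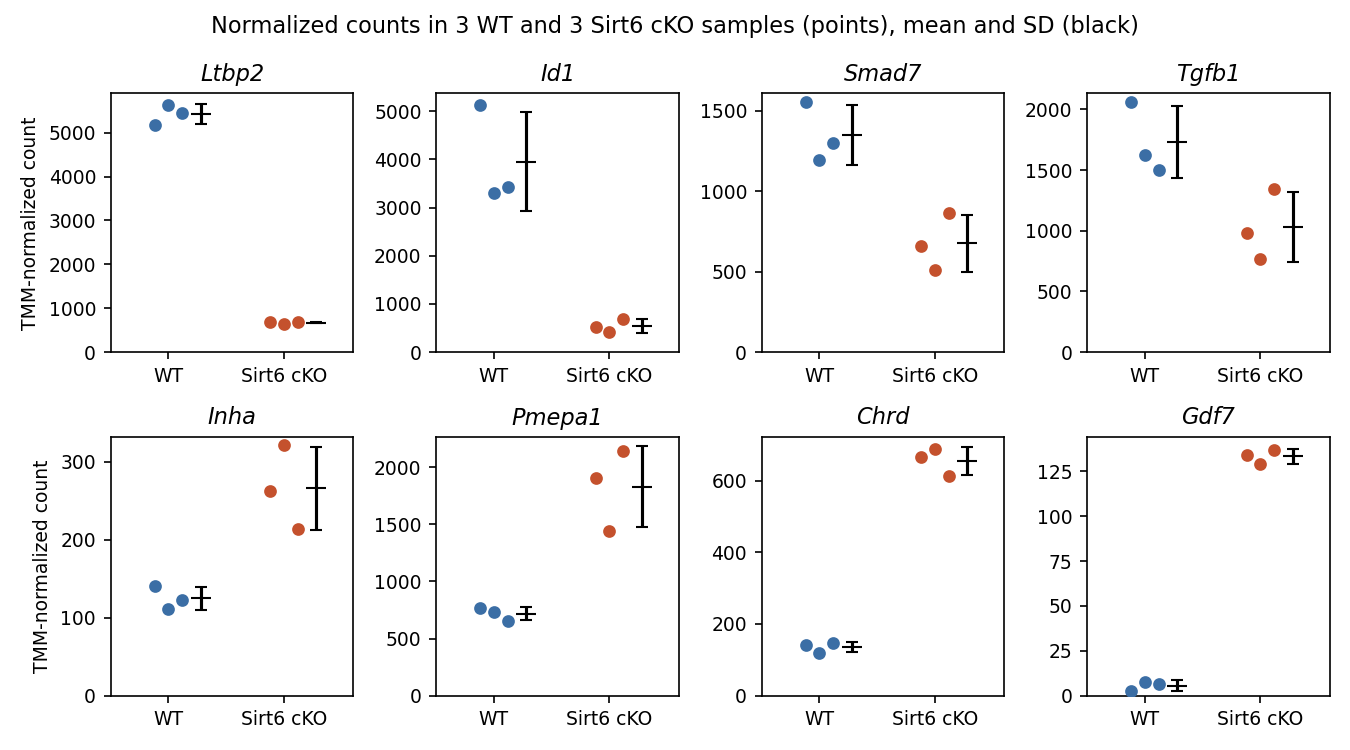
Normalised counts (vertical axes from 0, own scale in each panel) of 8 genes in the 3 WT and 3 Sirt6 cKO samples; points are samples, black bars are the mean and SD. In each panel the groups do not overlap: Ltbp2, Id1, Smad7 and Tgfb1 are lower in Sirt6 cKO and Inha, Pmepa1, Chrd and Gdf7 are higher. Relative to the counts of the gene, the gap is narrowest for Tgfb1, where the highest Sirt6 cKO sample is at 1340 and the lowest WT sample at 1504.

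The receptors split by gene. Tgfbr1, the type I receptor kinase of TGF-beta, rose 1.76-fold, with 416, 919 and 889 counts in the WT samples and 1242, 1295 and 1536 in the Sirt6 cKO samples (log2 fold change 0.82, standard error 0.222, edgeR adjusted p = 0.0156). WT replicate 1 had less than the other WT samples, and without it the log2 fold change was 0.60 (adjusted p = 0.00371), while without Sirt6 cKO replicate 3 the adjusted p was 0.0570. Tgfbr2, the type II receptor that activates Tgfbr1, had 2335, 2781 and 2692 counts in WT, against 3398, 3565 and 3254 in Sirt6 cKO. These groups did not overlap, yet the difference did not pass (log2 fold change 0.30, edgeR adjusted p = 0.0667). It passed without WT replicate 1 (log2 fold change 0.33, adjusted p = 0.0135) and with the other scalings given under the dependence on the processing.

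Tgfbr3, or betaglycan, presents TGF-beta ligands to the type II receptor. It had 4193, 6683 and 7038 counts in the WT samples and 5151, 5675 and 5075 in the Sirt6 cKO samples, and on the normalised scale WT replicate 1, at 5006, lay within the Sirt6 cKO range of 4924 to 5425 (log2 fold change -0.24, edgeR adjusted p = 0.202). Without WT replicate 1 the log2 fold change was -0.36 and passed (adjusted p = 0.00749), as it did with a trend on exon length removed (-0.35, adjusted p = 0.0277). Per kilobase, Tgfbr1 made up 5.34%, 8.07% and 7.67% of the counts of the 3 TGF-beta receptors in WT and 11.3%, 10.9% and 13.9% in Sirt6 cKO. Tgfbr3 made up 53.7%, 58.6% and 60.6% in WT and 46.6%, 47.9% and 45.9% in Sirt6 cKO. Neither share overlapped between the genotypes.

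Eng, or endoglin, a co-receptor best known from endothelial cells, had few counts: 85, 62 and 78 in WT and 144, 148 and 130 in Sirt6 cKO. It rose 1.74-fold (log2 fold change 0.80, standard error 0.252, edgeR adjusted p = 0.0288). The adjusted p was 0.0820 to 0.0944 when WT replicate 2 or 3, or Sirt6 cKO replicate 1 or 2, was left out. Without WT replicate 1 it was 0.00587 with a log2 fold change of 1.02, past 2-fold, so that 5 genes then rose over 2-fold. Ak1 on the same strand and Fpgs on the other share 124 and 61 exon bases with Eng, with 1142 to 2282 counts in Fpgs and 3227 to 6578 in Ak1, both lower in Sirt6 cKO (log2 fold changes -0.70 for Fpgs and -0.65 for Ak1). None of the endothelial markers looked for had a row in the stretches used, and their part in the value of Eng was not tested.

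Rgmb, a co-receptor of BMP, fell 1.53-fold, with 1398, 1788 and 1764 counts in WT, against 1173, 1226 and 1032 in Sirt6 cKO (log2 fold change -0.61, standard error 0.128, edgeR adjusted p = 0.00491). Acvr1, a type I receptor for BMP ligands, had 1763, 2328 and 2317 counts in the WT samples and 2342, 2024 and 2903 in the Sirt6 cKO samples, which overlapped (log2 fold change 0.10). Acvr1b, the type I receptor of activin, had 959, 1171 and 1039 counts in WT, against 1368, 1263 and 1323 in Sirt6 cKO (log2 fold change 0.23, edgeR adjusted p = 0.178). Neither receptor passed.

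The Smad genes differed in direction. Smad7, an inhibitory Smad that is itself induced by TGF-beta and recruits ubiquitin ligases to the receptors, had 1301, 1225 and 1367 counts in the WT samples and 672, 531 and 887 in the Sirt6 cKO samples. Every Sirt6 cKO sample lay below every WT sample. It fell 1.99-fold (log2 fold change -0.99, standard error 0.206, edgeR adjusted p = 0.00476), just outside the fold threshold, and its log2 fold change was -0.82 to -1.19 when each sample was left out in turn, passing 2-fold without WT replicate 2, WT replicate 3 or Sirt6 cKO replicate 3. With the replicate number as a block it was -1.02 (adjusted p = 0.000522), also past 2-fold, as it was with limma-voom (-1.02) and with a trend on exon length removed (-1.01).

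Smad3, the signal transducer of the TGF-beta branch, had 2350, 2918 and 2931 counts in WT, against 3554, 3469 and 4312 in Sirt6 cKO, all higher than WT. It rose 1.30-fold (log2 fold change 0.38, standard error 0.134, edgeR adjusted p = 0.0422). That call is weak, with an adjusted p of 0.0571 when the replicate number was added to the fit as a block, of 0.0629 with a trend on exon length removed, and of 0.0589 to 0.110 when any sample other than WT replicate 1 was left out.

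Smad1, of the BMP branch, had 1202, 1465 and 1647 counts in the WT samples and 1883, 1690 and 2222 in the Sirt6 cKO samples (log2 fold change 0.35, edgeR adjusted p = 0.0786). Smad6, the inhibitory Smad of the BMP branch, had 675, 500 and 615 counts in WT, against 724, 698 and 680 in Sirt6 cKO (log2 fold change 0.12, edgeR adjusted p = 0.634). Neither passed. Smad7 thus went from 22.5% to 25.5% of the counts per kilobase of the 4 Smad genes in WT to 9.38% to 12.5% in Sirt6 cKO, while Smad6 overlapped at 12.9% to 18.7% and 13.5% to 17.4%.

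Among the intracellular inhibitors and cofactors, Pmepa1 and Ski rose, Smurf1 fell and 4 genes did not pass. Pmepa1, a TGF-beta-induced membrane protein that sequesters Smad2 and Smad3 from the receptor, had 643, 754 and 687 counts in the WT samples and 1939, 1508 and 2207 in the Sirt6 cKO samples. The gene (ENSMUSG00000038400) lies at chr2:173224458-173276533 on the minus strand. All Sirt6 cKO samples were far above WT, and the normalised count went from 718 ± 59.2 to 1830 ± 356 (SD, n = 3 each), a 2.55-fold rise (log2 fold change 1.35, standard error 0.173, edgeR adjusted p = 0.000455). Pmepa1 and Smad7, both known as genes that TGF-beta induces and that restrain it, moved in opposite directions.

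Ski, a nuclear corepressor of Smad proteins, had 5112, 5575 and 5860 counts in WT, against 8640, 8003 and 10561 in Sirt6 cKO. It rose 1.54-fold (log2 fold change 0.63, standard error 0.143, edgeR adjusted p = 0.00740). Its relative Skil had 669, 1883 and 1762 counts in the WT samples and 1718, 1517 and 2040 in the Sirt6 cKO samples (log2 fold change 0.25), where only WT replicate 1 stood apart. Without that sample the log2 fold change of Skil was -0.04.

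Smurf1, a ubiquitin ligase that targets BMP Smads and receptors, had 3568, 4042 and 4056 counts in WT, against 2581, 2508 and 3173 in Sirt6 cKO. It fell 1.5-fold (log2 fold change -0.59, standard error 0.140, edgeR adjusted p = 0.00889, and 0.0509 without Sirt6 cKO replicate 1). Its relative Smurf2 had 2535, 4144 and 4331 counts in the WT samples and 4422, 4379 and 4491 in the Sirt6 cKO samples and did not pass (log2 fold change 0.21, edgeR adjusted p = 0.279). Smurf1 made up 57.8%, 48.7% and 47.7% of the counts per kilobase of the pair in WT and 36.2%, 35.8% and 40.7% in Sirt6 cKO, so that Smurf2 was the more abundant one in every Sirt6 cKO sample.

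Tgif1, a homeodomain repressor that binds Smads, had 1466 to 1711 counts in WT, against 1798 to 2463 in Sirt6 cKO (log2 fold change 0.27, edgeR adjusted p = 0.167). Tgfb1i1, also called Hic-5, a focal adhesion adaptor that TGF-beta induces, had 1926 to 2147 and 2027 to 2855 (log2 fold change 0.11, edgeR adjusted p = 0.638). Bmp2k had 629 to 1108 and 1049 to 1450 (log2 fold change 0.32, edgeR adjusted p = 0.188).

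Id1, a direct target of BMP Smads that inhibits basic helix-loop-helix factors, fell 7.29-fold. Its counts were 4295, 3393 and 3602 in WT and 532, 435 and 707 in Sirt6 cKO. Every Sirt6 cKO sample lay far below every WT sample. The gene (ENSMUSG00000042745, chr2:152736251-152737410, plus strand) went from a normalised count of 3951 ± 1020 to 542 ± 136 (SD, n = 3 each; log2 fold change -2.87, standard error 0.245, edgeR adjusted p = 5.22e-05). Without WT replicate 1, the highest sample, and in every other fit that left out a sample, the log2 fold change stayed between -2.63 and -3.06.

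Snai1 and Zeb2, transcription factors that TGF-beta can induce in mesenchymal transitions, did not pass. Snai1 had 2048, 2060 and 2114 counts in the WT samples and 2029, 1822 and 2487 in the Sirt6 cKO samples, and the groups overlapped (log2 fold change -0.07, edgeR adjusted p = 0.743). Zeb2 had 1477, 4459 and 4352 counts in WT, against 4897, 5530 and 5738 in Sirt6 cKO (log2 fold change 0.61, standard error 0.294, edgeR adjusted p = 0.116). WT replicate 1 was far below every other sample. Without it, the log2 fold change was 0.30 with an adjusted p of 0.0261, and with the replicate number as a block it was 0.71 with an adjusted p of 0.0124. Zeb2os on the other strand shares 458 of the 19659 exon bases of Zeb2.

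WT replicate 1 moved with the exon length of the genes. Over the 33 genes, its log2 difference from the mean of the other WT samples ranged from 0.75 for Gdf15 and 0.61 for Id1 down to -1.13 for Skil, -1.26 for Zeb2 and -1.42 for Gdf7. Spearman's rho with exon length was -0.533 over the 33 genes and -0.476 over 6617 genes, all of them sharing that library. The same rho for the Sirt6 cKO mean against WT replicates 2 and 3 was 0.094. Zeb2 and Skil, among the longest of the 33 genes, were also among those lowest in this sample. Without WT replicate 1, the log2 fold change was -3.04 for Ltbp2, 4.18 for Gdf7, 2.30 for Chrd and 1.19 for Inha, all past the test as before. It was -0.53 for Inhba, -0.39 for Gdf15, 0.34 for Smad6, 0.18 for Bmp2k and 0.08 for Smurf2, none of them past it. With a trend on exon length removed from each sample, the log2 fold change was 0.17 for Zeb2 (adjusted p = 0.343), -3.20 for Ltbp2 and -2.57 for Id1.

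**Figure D3:**
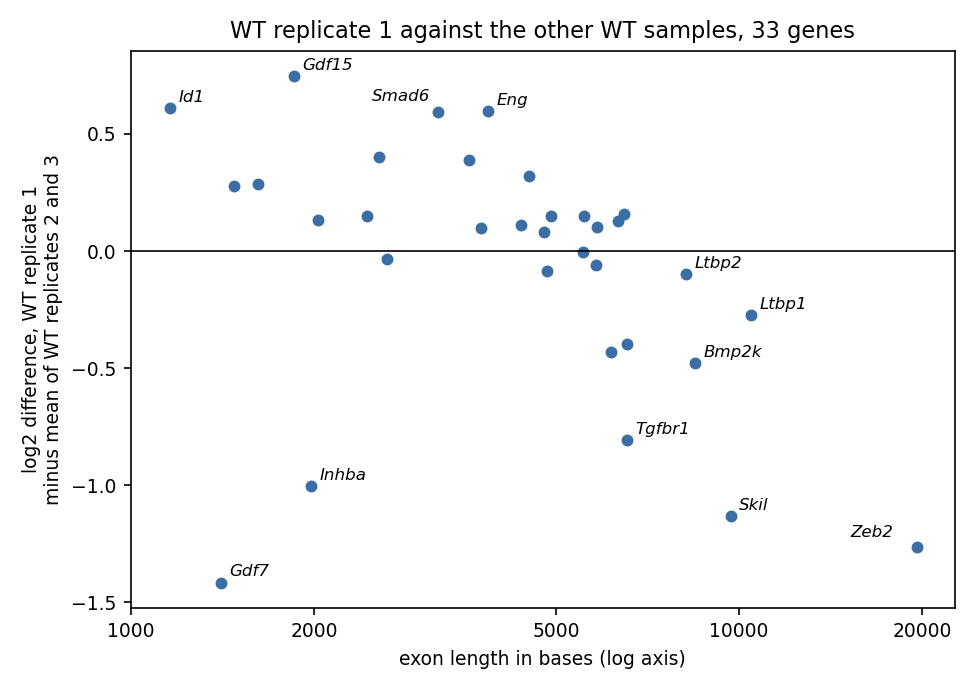
Log2 difference of WT replicate 1 from the mean of WT replicates 2 and 3 (vertical axis) against exon length in bases (log axis), 1 point for each of the 33 genes. The longest gene, Zeb2 at 19659 bases, lies at -1.26 and short Id1 at 0.61, while Gdf7 and Inhba are short genes that also lie low.

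Levels compared per exon length and averaged over both genotypes placed Snai1, Ski and Id1 highest. Averaged over the 6 samples, log2 RPKM (reads per kilobase of exon, scaled to TMM-adjusted library size) were 5.49 for Snai1, 5.46 for Ski and 5.43 for Id1, which lie within their spread over samples. In WT alone, Id1 was first at 6.86, before Snai1 at 5.52 and Ski at 5.15. In Sirt6 cKO, Ski at 5.77, Snai1 at 5.45 and Tgfbr3 at 4.77 were highest, and Id1 was at 3.99. Ltbp2 went from 4.52 in WT to 1.52 in Sirt6 cKO, near Gdf7 at 1.72 in Sirt6 cKO. At the lower end, the mean log2 level over all samples was 0.83 for Chrd, -0.12 for Eng, -0.65 for Gdf7 and -1.12 for Gdf15.

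**Figure D4:**
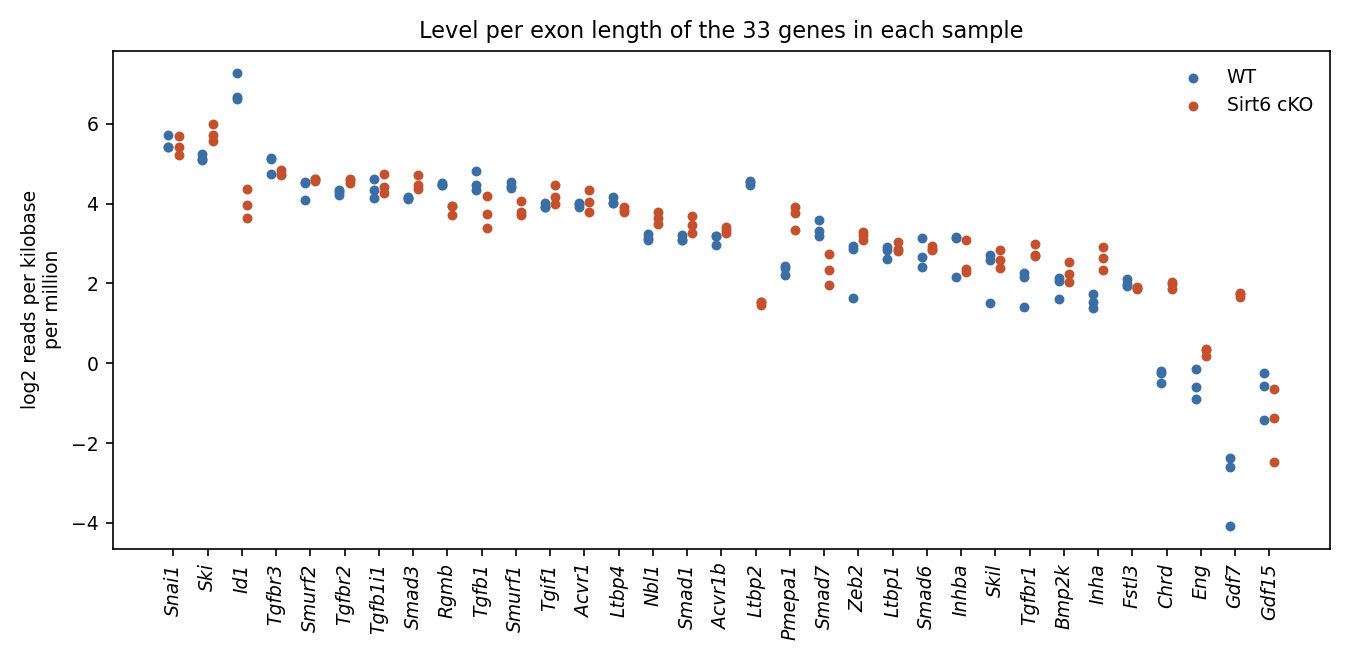
Log2 RPKM of the 33 genes in each sample, ordered by the mean over all 6 samples; points are samples, coloured by genotype. Id1 and Ltbp2 drop from the upper part of the range in WT to 3.99 and 1.52 on average in Sirt6 cKO, and Gdf7 rises from -3.02 to 1.72.

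Other genes around the pathway were read from 6 lists with 72 genes tested, out of 154 listed. Of these 72, 10 rose and 7 fell over 2-fold, 19 rose and 14 fell at any fold, and 39 did not pass. Those over 2-fold higher were 13.9% and lower 9.72% of the 72 genes, beside 8.72% and 7.15% of all genes tested, and those past the test at any fold were 45.8%, beside 46.8%. With the replicate number as a block, 25 were higher and 16 lower at any fold, with the number over 2-fold at 10 and 7. The share of all genes tested was not taken in that fit, so the larger counts at any fold cannot be set beside it. The median log2 fold change of the 72 genes was 0.195, and 0.051 without WT replicate 1, when 8 rather than 10 genes rose and 4 rather than 7 fell over 2-fold. The 5 genes that then lay under 2-fold, all still with an adjusted p under 0.05, were Mapk9 (log2 fold change 0.88), Tab2 (0.97), Ccn2 (-0.91), Stub1 (-0.87) and Cnn1 (-0.71). At any fold, 25 genes rose and 19 fell without WT replicate 1, again with no share of all genes taken in that fit. Cul1 (log2 fold change -0.66), Sp1 (-0.47), Ctbp1 (0.37) and Wwp2 (0.36) were among those that passed then but not with all samples. Of the genes, 8 also stand in the cell type marker lists given last (Comp, Col1a1, Col1a2, Dcn, Mfap5, Runx2, Sox9 and Spp1).

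Of 12 TGF-beta response genes, 3 rose and 3 fell over 2-fold, with 5 higher and 3 lower at any fold and a median log2 fold change of 0.45. Comp, a cartilage matrix protein, had 15, 14 and 28 counts in the WT samples and 193, 322 and 182 in the Sirt6 cKO samples (log2 fold change 3.52, edgeR adjusted p = 0.000115). Timp1, an inhibitor of matrix metalloproteinases, had 3060, 2837 and 3013 counts in WT, against 506, 466 and 711 in Sirt6 cKO (log2 fold change -2.51, edgeR adjusted p = 4.02e-05). The collagen I genes Col1a2 and Col1a1 rose by 1.99 and 1.34 on the log2 scale. Cnn1 and Ccn2, a smooth muscle calponin and a matricellular growth factor, fell by 1.06 and 1.03 on that scale. Response genes known to be induced by TGF-beta were thus found on both sides.

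Of 6 BMP response genes, 1 rose and 1 fell over 2-fold, with 3 higher and 1 lower at any fold and a median log2 fold change of 0.40. The shares were 33.3% over 2-fold and 66.7% at any fold, beside 15.9% and 46.8% of all genes tested. Gata3, a zinc finger transcription factor, had 26, 27 and 20 counts in the WT samples and 59, 106 and 132 in the Sirt6 cKO samples (log2 fold change 1.92, edgeR adjusted p = 0.00371). Atoh8, a basic helix-loop-helix factor, had 1831, 1543 and 1659 counts in WT, against 655, 631 and 907 in Sirt6 cKO (log2 fold change -1.31, edgeR adjusted p = 0.00126). Id1 and Atoh8 fell, while Sox9 and Spp1 rose by less than 2-fold (log2 fold changes 0.62 and 0.53).

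Of 10 genes for release and matrix storage of latent TGF-beta, 3 rose and none fell over 2-fold, with 4 higher at any fold and a median log2 fold change of 0.23. This is 30.0% higher over 2-fold and 40.0% higher at any fold, beside 8.72% and 22.5% of all genes tested. Dcn, or decorin, a proteoglycan that binds TGF-beta, had 2068, 4455 and 3714 counts in the WT samples and 36771, 37758 and 35254 in the Sirt6 cKO samples (log2 fold change 3.36, edgeR adjusted p = 1.07e-05). Mmp2, a gelatinase, had 7956, 9195 and 9181 counts in WT, against 42291, 44473 and 39010 in Sirt6 cKO (log2 fold change 2.17, edgeR adjusted p = 7.19e-06). Mfap5, a microfibril protein, rose by 1.22 on the log2 scale.

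Of 15 Smad partners and phosphatases, none rose and 1 fell over 2-fold, with 1 higher and 5 lower at any fold and a median log2 fold change of 0.01. The shares were 6.67% over 2-fold and 40.0% at any fold, beside 15.9% and 46.8% of all genes tested. Without WT replicate 1 the median, held by Sin3a, was -0.15. Ctbp1 (0.37) and Zfp423 (0.92) then passed as higher and Sp1 (-0.47) as lower. With the replicate number as a block, Ncor1 and Zfp423 passed as higher. The gene that fell was Rbl1, the pocket protein p107, with 1568, 3248 and 3143 counts in the WT samples and 980, 968 and 882 in the Sirt6 cKO samples (log2 fold change -1.55, edgeR adjusted p = 0.000505). Of 13 ubiquitin ligases and deubiquitinases, 1 rose and 2 fell over 2-fold, with 2 higher and 2 lower at any fold and a median log2 fold change of 0.21. These are 23.1% over 2-fold and 30.8% at any fold, beside 15.9% and 46.8% of all genes tested. The median, held by Usp15, was -0.11 without WT replicate 1. Usp11, a deubiquitinase, had 27, 48 and 39 counts in WT, against 493, 522 and 600 in Sirt6 cKO (log2 fold change 3.74, edgeR adjusted p = 8e-06). Uchl5 and Stub1, a deubiquitinase and a ligase, fell by 1.09 and 1.08 on the log2 scale. Of 17 genes of the non-Smad branch, 2 rose and none fell over 2-fold, with 4 higher and 3 lower at any fold and a median log2 fold change of 0.00. The shares, 11.8% over 2-fold and 41.2% at any fold, lay near the 15.9% and 46.8% of all genes tested. The 2 that rose were Tab2, an adaptor of the kinase TAK1, and Mapk9, or JNK2, by 1.19 and 1.07 on the log2 scale.

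**Figure D5:**
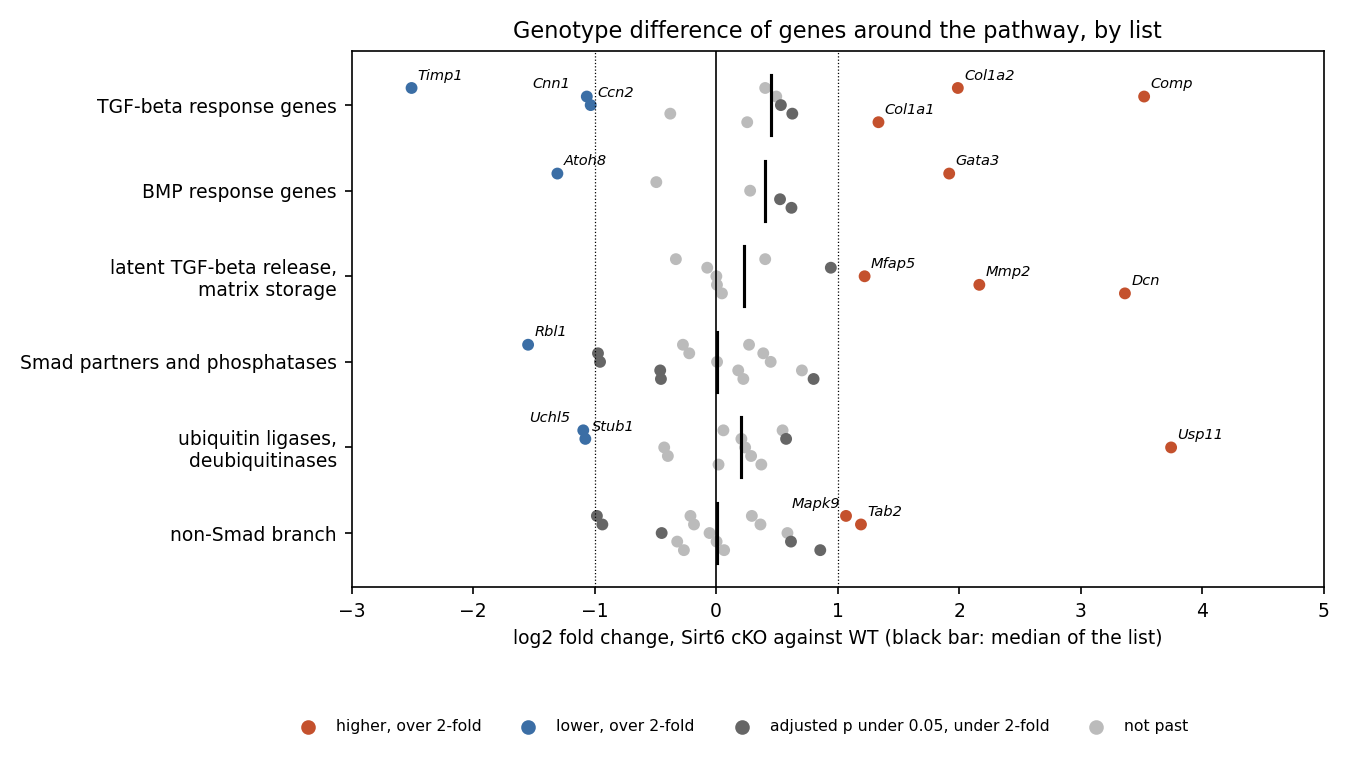
Log2 fold change of Sirt6 cKO against WT (horizontal axis) for the 72 genes of 6 lists around the pathway; points are genes, black bars are list medians, dotted lines mark 2-fold. Named genes passed the test with over 2-fold change, among them Usp11 at 3.74, Comp at 3.52 and Dcn at 3.36 on the right and Timp1 at -2.51 on the left, and the medians lie between 0.00 and 0.45. Without WT replicate 1, which is not drawn, the medians of the Smad partners and of the ubiquitin genes were -0.15 and -0.11.

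Cell type markers also moved with genotype. Of 22 chondrocyte markers, 6 had a row in the stretches used, and the defining genes Col2a1 and Acan were not analysed here. Of the 6, 4 rose over 2-fold (Col11a1, Comp, Ucma and Scrg1) and none fell over 2-fold, beside 8.72% of all genes tested that rose so, and their summed level was 199 to 217 CPM (counts scaled to the TMM-adjusted library size) in WT and 394 to 494 in Sirt6 cKO. Ucma, which marks cartilage, had 6, 2 and 6 counts in the WT samples and 319, 307 and 114 in the Sirt6 cKO samples, and Scrg1 had 0, 2 and 0 in WT and 40, 45 and 56 in Sirt6 cKO. Sox9, the chondrocyte master transcription factor, had 4917 to 5595 counts in WT, against 7404 to 11059 in Sirt6 cKO. Col9a3, a cartilage collagen, had 151, 162 and 180 counts in WT, against 117, 149 and 98 in Sirt6 cKO, and did not pass (log2 fold change -0.53, edgeR adjusted p = 0.0756). Ucma and Scrg1 passed the filter on low counts only through Sirt6 cKO. In WT, Sox9 was well detected while Ucma and Scrg1 were at or near 0.

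Of 14 synovial fibroblast markers, 10 had a row and 6 rose over 2-fold, beside the same 8.72%, and their summed level was 11800 to 12000 CPM in WT and 36600 to 42100 in Sirt6 cKO. Most of that sum was collagen I, which other connective tissue cells express too. The markers did not move together: Cd34 fell by less than 2-fold (log2 fold change -0.54, edgeR adjusted p = 0.00536), and Pdpn at -0.36, Has1 at -0.26 and Thy1 at 0.09 did not pass. Lum, or lumican, had 0, 4 and 4 counts in the WT samples and 257, 249 and 326 in the Sirt6 cKO samples, and also passed the filter on low counts only through Sirt6 cKO. The 2 osteoblast markers with a row summed to 713 to 904 CPM in WT and 1120 to 1170 in Sirt6 cKO. Nfatc1 of the osteoclast list was at 30.4 to 35.3 in WT and 14.2 to 17 in Sirt6 cKO, Cd68 of the macrophage list at 1.52 to 1.70 and 0.205 to 1.73, and Des of the skeletal muscle list at 3.54 to 4.03 and 6.85 to 7.68. The endothelial, adipocyte, erythroid and neutrophil markers had no row in the stretches used. The part of these markers in the values of the 33 genes was not tested.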

How the data were processed

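Total RNA of 6 samples, 3 per genotype, was sequenced after poly(A) selection or ribosomal depletion. The authors deposited raw read counts per Ensembl gene with exon positions and summed exon lengths, not normalised. The submitters' processing notes name cutadapt, HISAT2 2.0.5 and StringTie. They name the human build hg19, which cannot be the build of these mouse genes, whose positions fit GRCm38. The counter and its strand setting were not given in the sources used here, so reads of overlapping genes cannot be assigned with certainty. The labels and the study's methods name different library kits and sequencers.

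Genes were named by position, sharing at least 0.5 of the joint span with a RefSeq gene of GRCm38.p6, which named 10609 of 11659 rows. The share was at least 0.9 for 28 of the 33 members. It was 0.56 for Inhba, 0.67 for Acvr1, 0.76 for Rgmb, 0.78 for Tgfb1i1 and 0.84 for Chrd. In parts of the table the counts are shifted against the gene labels. The members were taken from identifier numbers 1 to 20900 and 25770 to 48200, where Spearman's rho between exon length and count was 0.276 over 6623 genes, against -0.012 to 0.031 when the counts were moved by 1 to 6 rows. Rgmb and Smad7 lie nearest to a limit of these stretches, 22 and 32 rows from it. The members, lists and tests were chosen with earlier results of these data known. Full statistics are given for members past the test, and up to 4 other genes per pathway list were named by size of change. Ccn2, Cnn1, Sox9, Spp1 and the marker genes were named outside that rule, after their values were seen.

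Counts were fitted over the whole table with edgeR 4.0.16 (limma 3.58.1, R 4.3.3), using TMM scaling, filterByExpr (11246 genes tested, 413 left out) and the quasi-likelihood test with genotype as the only term and Benjamini-Hochberg adjustment. The standard error is the absolute log2 fold change over the square root of the F statistic. On simulated counts, the procedure recovered 67 of 99 changes of 2-fold and 94 of 98 of 4-fold, and called 6 unchanged genes. Changes under 2-fold were not simulated. Pairs of samples of a group differed by more than counting error (4.73 to 53.4 times, median over genes), so none was a copy of another in its group. The highest values, 50.4 and 53.4, were those of the pairs with WT replicate 1. This cannot show that the samples came from different animals, and each was counted as 1 sample. Deviations from the group means were correlated between same-numbered WT and Sirt6 cKO samples ( 0.262, 0.104 and 0.136 over 11246 genes), although the labels do not say what a number shares, and a fit with the replicate number as a block was run. Other scalings, filters, tests and left-out samples were tried with DESeq2 1.42.0, limma-voom and edgeR, and removal of an exon length trend was added after seeing the data.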

Additional observations from a re-analysis of the deposited data

How the results depend on the processing

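The 6 members past 2-fold and Smad7 kept an adjusted p under 0.05 in every fit that tested them other than glmTreat, a test against 2-fold itself, which called 2 members as higher (Gdf7 and Chrd) and 2 as lower (Ltbp2 and Id1). Gdf7 was not tested where 10 counts in every sample were required. At an adjusted p under 0.01, 5 members were higher at any fold. With the samples left out in turn, 3 to 5 members were over 2-fold higher, 2 to 3 lower, 6 to 11 higher at any fold and 4 to 7 lower, and the median log2 fold change was 0.149 to 0.270. The median of the members was 0.134 with the length trend removed and 0.283 with upper-quartile factors. The replicate block changed the call of Smad3 (adjusted p = 0.0571) and Zeb2 (adjusted p = 0.0124) and took Smad7 past 2-fold (-1.018), as did limma-voom (-1.016) and removal of the length trend (-1.013), so that 3 members were over 2-fold lower. It changed no other call of a member. Tgfbr2 passed with upper-quartile factors (adjusted p = 0.0331), total counts (0.0298) and DESeq2 (0.0450), and Smad1 with the first 2 (0.0341 and 0.0482). Directions reversed only in members that did not pass: Snai1 (0.003 with upper-quartile factors, 0.133 with the length trend removed, -0.189 to 0.035 with a sample left out), Ltbp1 (-0.165 with the length trend removed), and, over the fits that left out a sample, Acvr1 (-0.033 to 0.225) and Tgfb1i1 (-0.019 to 0.248), lowest without Sirt6 cKO replicate 3, Smad6 (-0.021 to 0.344), lowest without WT replicate 2, and Skil (-0.039 to 0.476), lowest without WT replicate 1. For the 72 genes of the lists, the number over 2-fold lower was 4 with upper-quartile factors, 2 with glmTreat (6 higher), 3 with the length trend removed and 4 to 10 with a sample left out. Their median was 0.270 with upper-quartile factors, 0.242 with total counts, 0.085 with the length trend removed and 0.051 to 0.252 with a sample left out (0.130 without Sirt6 cKO replicate 3). These 2 scalings put the median of all genes at 0.079 and 0.052. The causes were not tested. Gdf7, with 2 to 8 counts in WT, is limited by depth.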
